A study of Mus musculus with 458 samples.

Results

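Platelet-erythroid-myeloid restricted (PEM) haematopoietic stem cells are donor HSCs recovered from mice in which the transplanted clone had replenished platelets, erythrocytes and myeloid cells. They were taken as all cells whose deposited status is platelet, erythroid and myeloid biased, 118 of 458 cells, of which 93 came from PEM mouse 1 and 25 from PEM mouse 2. The status records blood reconstitution and not expression. In the study, single Vwf+ HSCs were transplanted, and recipients were followed for 16 weeks. The donor-derived cells of a mouse therefore trace, by the design, to 1 transplanted cell. Donor-derived bone marrow HSCs (C57BL/6, sorted as LSK CD150+CD48-CD45.2+, with CD45.2 on donor cells) were index sorted and sequenced with the SMARTer Ultra Low RNA kit. The other classes were multilineage (MUL, 163 cells) and platelet restricted (PLT, 177 cells), with 2 mice in each of the 3 classes. PEM mouse 1 is recorded as male and PEM mouse 2 as female, both MUL mice and PLT mouse 1 as male, and PLT mouse 2 as female. All groups share the Vwf+ origin of the transplanted cell, the strain and the gate, and no age was stated in the sources read here. With 1 founder cell per mouse, a difference between founders and a difference between classes cannot be told apart beyond the spread of the 2 mice.

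HSCs renew themselves in the marrow and feed all blood lineages through progenitors whose options narrow stepwise. Single HSCs differ in which lineages they replenish after transplantation, and many HSCs with a platelet bias transcribe genes shared with megakaryocytes, such as Vwf, which encodes the platelet adhesion protein von Willebrand factor. Lineage choice is associated with transcription factors, among them Gata1 for platelets and red cells and Sfpi1 (PU.1, Spi1 in the annotation) for myeloid and lymphoid cells.

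The start regions of 3 genes that mark the results are shown, 2 markers of these cells and Emcn, a gene detected in none of them that had the smallest p against the other classes. Capitals mark matches to 3 motifs, each searched on both strands. The motif of the ETS family of transcription factors was spelled AGGAAG. For the GATA family, which includes Gata1, the letters were AGATAA. For the RUNX family, which acts in HSC formation, they were TGTGGT. Each window is the 250 bases before a RefSeq start site on GRCm38.p6, 5′ to 3′, and all 3 lie on the plus strand. Slamf1, which encodes the gate antigen CD150, is shown from chr1:171766882-171767131, Aldh1a1, a retinaldehyde dehydrogenase, from chr19:20601718-20601967 (the second of 2 listed starts, the first of which held none of the motifs), and Emcn, the sialomucin endomucin, from chr3:137340828-137341077.
Slamf1: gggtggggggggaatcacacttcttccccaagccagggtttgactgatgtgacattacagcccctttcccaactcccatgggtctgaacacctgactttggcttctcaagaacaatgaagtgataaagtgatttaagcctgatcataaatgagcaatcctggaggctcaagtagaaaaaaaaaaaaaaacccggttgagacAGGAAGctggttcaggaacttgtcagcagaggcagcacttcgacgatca
Aldh1a1: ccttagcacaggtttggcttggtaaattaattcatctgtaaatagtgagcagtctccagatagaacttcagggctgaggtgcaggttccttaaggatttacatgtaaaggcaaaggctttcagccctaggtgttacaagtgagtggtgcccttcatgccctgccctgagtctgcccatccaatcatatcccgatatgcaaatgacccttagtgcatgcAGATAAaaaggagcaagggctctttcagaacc
Emcn: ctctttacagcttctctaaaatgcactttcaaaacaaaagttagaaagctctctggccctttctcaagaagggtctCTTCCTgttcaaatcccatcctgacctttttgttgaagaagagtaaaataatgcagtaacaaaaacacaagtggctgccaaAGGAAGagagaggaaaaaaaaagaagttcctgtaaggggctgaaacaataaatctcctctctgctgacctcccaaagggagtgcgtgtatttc
Counted back from the start site to the first base of the match, the Slamf1 window held an ETS match at -49, the Aldh1a1 window a GATA match at -32 and the Emcn window ETS matches at -174 and -93. Of 32851 windows of this length, 9686 held the ETS letters, 3281 the GATA letters and 4614 the RUNX letters. None of the 3 windows held the RUNX letters, and no motifs overlapped. Of 2 windows of Plac8, not printed, one held 2 RUNX matches and the other held no match. These matches describe sequence only, and the expression table holds no measurement of binding.

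The median depth of a PEM cell was 5.32 M mapped reads in mouse 1 and 4.28 M in mouse 2 (range 1.598 to 17.3 M). Their median of detected genes was 3186 in mouse 1 and 2752 in mouse 2, above the 1869 to 2596 of the other 4 mice. The titles mark each cell P1 or P2, which is read here as plate 1 and plate 2, although the titles do not say what the mark stands for. The second plate of PEM mouse 2 (11 cells) stood apart, with a median of 12.2 M reads but 1944 detected genes, against 3.20 M reads and 3224 genes on its first plate (14 cells). Markers of mature blood cells (at least 3 of a list at 1 RPKM or more) were found in 10 of 93 PEM cells of mouse 1 and 8 of 25 of mouse 2, 6 of these on plate 2. In mouse 2 they included 5 cells with erythroid markers and 4 with neutrophil markers. The globin gene Beta-s was at 1 RPKM or more in all 25 cells of mouse 2 and 28 of 93 of mouse 1. S100a8, a neutrophil calcium-binding protein, reached 232885 RPKM there and 898 RPKM in mouse 1. Of 34 HSC identity genes, 3 plate 2 cells of mouse 2 expressed 4 or fewer, against a median of 15 in that mouse. One plate 1 cell of mouse 1 had a summed RPKM of 1124850 against a median of 550108, and it held the highest value of 8 of the 75 most variable genes described below. Means are therefore also given without the highest cell. In PEM mouse 2, Xist was at 1 RPKM or more in 17 of 25 cells and the Y-linked Ddx3y in 0, and in PEM mouse 1 these were 0 and 46 of 93 cells, as recorded. PLT mouse 2, recorded as female, had Ddx3y in 26 of 84 cells and Xist in 0, so its expression went against the recorded sex.

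All 5 marker genes were expressed in 24 to 82.8% of the cells of a PEM mouse, and within a mouse cells without a transcript stood beside cells with very high values. Plac8, a small cysteine-rich protein of blood progenitors, was at 1 RPKM or more in 77 of 93 cells of mouse 1, where it was the most widespread of the 5, and 10 of 25 of mouse 2, where Aldh1a1 was. Lst1, a leukocyte-specific transcript of the MHC class III region, was found in 52 of 93 and 10 of 25 cells. Aldh1a1 was found in 52 of 93 and 14 of 25 cells, Vwf in 51 of 93 and 10 of 25, and Slamf1 in 35 of 93 and 6 of 25. By the annotation, Vwf lies on chromosome 6, Slamf1 on 1, Plac8 on 5, Lst1 on 17 and Aldh1a1 on 19.

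Lst1 averaged 272 RPKM in PEM mouse 1 and 258 in PEM mouse 2, against 56.6 and 67.1 in MUL 1 and MUL 2, and 51.1 and 103 in PLT 1 and PLT 2. In single PEM cells it ran from 0 through a median of 1.86 to 6805 RPKM in mouse 1, and from 0 through 0.310 to 1832 in mouse 2. Both PEM means stood above those of all 4 other mice, also without the highest cell of each mouse (201 and 192 against 42.3 to 87.4). The log2 difference from the mean of the other classes was 1.97 ± 0.36 (SE), and it did not pass (adjusted p = 0.76, limma). In mouse 2, Lst1 averaged 45.1 RPKM on plate 1 and 528 on plate 2, so its mean there rested on the plate that stood apart.

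Vwf averaged 24.6 RPKM in mouse 1 and 23.5 in mouse 2, against 2.39 and 8.53 in MUL 1 and MUL 2, and 18.4 and 15.1 in PLT 1 and PLT 2. In the cells it ran from 0 to 174 RPKM in mouse 1 (median 3.77) and from 0 to 246 in mouse 2 (median 0.0354). Without its highest cell, PEM mouse 2 averaged 14.3 RPKM, below PLT mouse 1 at 15.7. The gap to the MUL mice was 2.14 ± 0.69 (SE, log2) and that to the PLT mice 0.50 ± 0.69, neither past the threshold (adjusted p = 0.87 and 0.86, limma). So although all transplanted cells had been chosen as Vwf+, 42 of 93 and 15 of 25 PEM cells were below 1 RPKM.

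Aldh1a1 averaged 118 and 198 RPKM in the PEM mice against 59.7 to 85.9 in the other 4, with cells from 0 to 740 RPKM in mouse 1 (median 4.64) and 0 to 1056 in mouse 2 (median 106). The PEM mice did not overlap the others, and the log2 difference was 1.001 ± 0.35 (SE, adjusted p = 0.76, limma). Slamf1 averaged 65.8 and 41.0 RPKM, within the range of the other mice (4.25 to 78.3), with cells from 0 to 618 and 0 to 328. Plac8 averaged 352 and 294 RPKM against 84.6 to 351. A single cell at 5058 RPKM carried the mean of mouse 2, which was 95.8 without it. Its median was 308 RPKM in mouse 1 and 0.532 in mouse 2, so most cells of mouse 1 and few of mouse 2 held the transcript at a high level. Of the 5 markers, 3 (Vwf, Lst1 and Aldh1a1) had means above all 4 other mice, where 7.78% of the 11337 genes tested did and 5.82% had means below them. The markers were picked with results of these cells known, so their count cannot be weighed against that share.

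**Figure D1:**
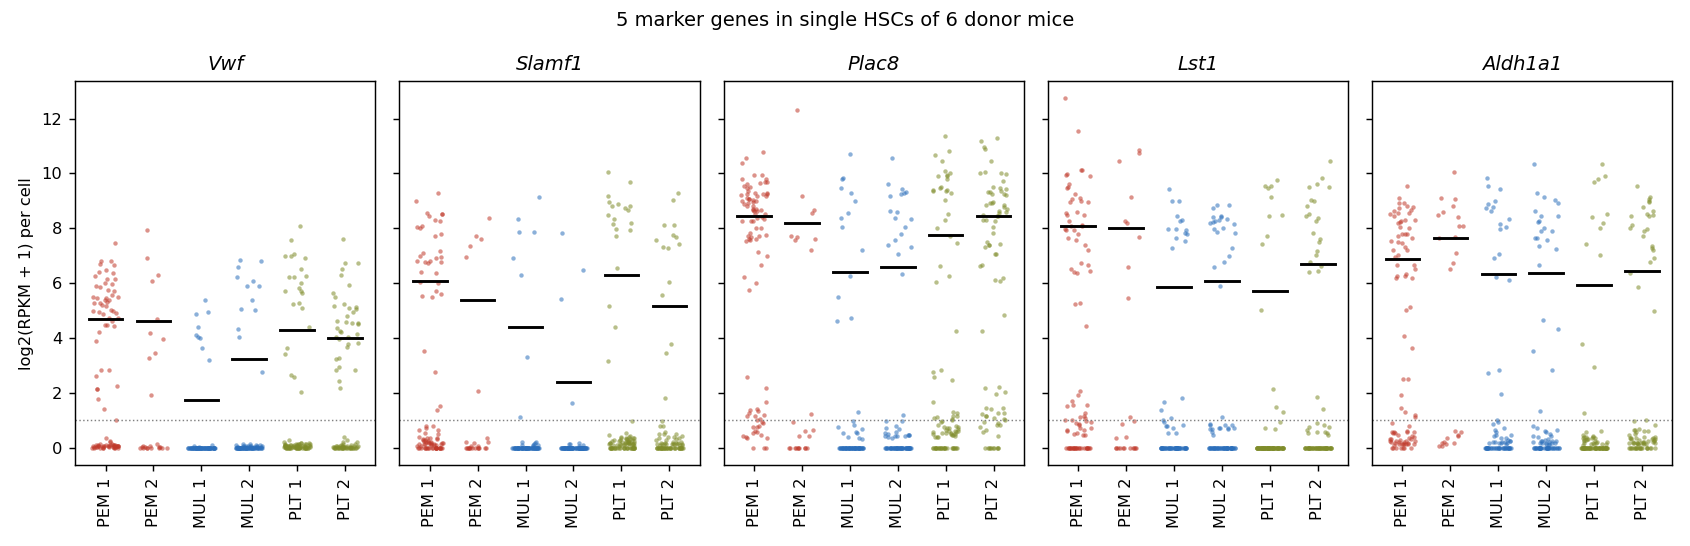
Each point is 1 cell and each black bar the log2(mean RPKM + 1) of a mouse, for the 5 marker genes in 2 PEM, 2 MUL and 2 PLT mice, and the dotted line marks 1 RPKM. PEM cells split into a band near 0 and a band of high values in every marker, and the upper band of Plac8 holds more cells in PEM mouse 1 than in PEM mouse 2.

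The markers also differed in how many a cell held. At least 3 of the 5 were at 1 RPKM or more in 57 of 93 cells of PEM mouse 1 (61.3%, exact 95% interval 50.6 to 71.2%) and 9 of 25 of PEM mouse 2 (36%, 18.0 to 57.5%). In the other mice the share was 4.71 to 27.4%. All 5 were present in 10 and 1 PEM cells, and none in 3 and 3. The intervals cover counting error only. With 10 RPKM as the limit the shares were 48.4% and 24% against 2.56 to 20.2%. PEM cells had more detected genes than other cells, and among cells with 2000 to 3500 detected genes the share was 63.3% in mouse 1 and 23.1% (3 of 13 cells) in mouse 2, against 4.26 to 25%. The higher share in both PEM mice therefore held in that window for mouse 1 and not for mouse 2. The markers were picked with results of these cells known, so these counts describe them.

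Transcripts of the gate's antigens were read next. Kit, the stem cell factor receptor, was expressed in 70 of 93 and 18 of 25 PEM cells with means of 81.3 and 76.1 RPKM. Ly6a, the gene of the gate antigen Sca-1, was found in 80 of 93 and 12 of 25 cells with means of 444 and 400 RPKM. Cd48, whose protein the gate excludes, reached 1 RPKM in 2 of 93 and 0 of 25 cells, the latter allowing a share of up to 12%. Flt3, a receptor of multipotent progenitors, was found in 1 cell of each mouse.

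HSC identity genes were broadly present. Of 34 genes of HSC identity and self-renewal, 22 were expressed in at least 20% of cells in both PEM mice, and 1, Emcn, in none. None of the 34 passed (19 with a positive and 15 with a negative change, median log2 change 0.12). Hoxb5 stood above all 4 other mice (7.78% of all genes did), and Emcn, Angpt1 and Bmi1 stood below (5.82% of all genes), so both counts were near those of all genes. The interferon-induced Ifitm1 and Ifitm3 were highest, at means of 2508 and 902 RPKM for Ifitm1 and 2060 and 1812 for Ifitm3. Procr (30 and 6 cells), Hlf (39 and 9) and Mecom (37 and 4), genes often used to define HSCs, were each found in fewer than 50% of the cells of either mouse. Their PEM means lay within the range of the other mice except that of Mecom in PEM mouse 2, at 13.6 RPKM against 27.9 to 35.1.

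Endomucin transcripts were not detected. Emcn was below 1 RPKM in all 93 and all 25 PEM cells and listed at 0 in each, which allows a share of up to 3.23% in mouse 1 and 12% in mouse 2. It was found in 10 of 78, 14 of 85, 3 of 93 and 9 of 84 cells of MUL 1, MUL 2, PLT 1 and PLT 2, with means of 62.7, 56.6, 11.1 and 40.7 RPKM. Without its highest cell the PLT mouse 1 mean was 0.0455 RPKM, and its share of expressing cells (3.23%) equalled the upper limit for PEM mouse 1. The upper limit for PEM mouse 2 lies above the shares in PLT mouse 1 and PLT mouse 2 (10.7%). The fit gave the smallest p of the comparison and did not pass (adjusted p = 0.44, limma). The fitted change depends on the constant added to each mean, so no fold is given.

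Platelet and megakaryocyte genes were read next. Of 32 such genes, 15 were expressed in at least 20% of cells in both mice and 3 (Gp6, Mmrn1 and Tubb1) in none. The transcription factor Nfe2 averaged 341 and 239 RPKM, in 89 of 93 and 20 of 25 cells, and the tetraspanin Cd9 248 and 410 RPKM, in 79 and 21 cells. Pf4, the platelet chemokine, averaged 419 and 1382 RPKM but in fewer cells, 40 of 93 and 14 of 25, with highest cells of 13066 and 9660 RPKM. Of its expressing cells, 20 in mouse 1 and 3 in mouse 2 lay between 1 and 10 RPKM. Itga2b, the integrin CD41, averaged 24.7 and 25.2 RPKM in 25 of 93 and 9 of 25 cells. All 9 of the latter lay on plate 1.

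Of the 29 platelet genes tested, 0 passed (0% of all genes did), and 23 had a positive change, as did 6090 of all 11337 genes. The list's median log2 change from the other classes was 0.85 against 0.06 for all genes. Those that stood above all 4 other mice were 7 (7.78% of all genes did), namely Vwf, Itga2b, Gp9, Nbeal2, F2r, Gfi1b and Ptgs1, and 1, the calcium channel gene Trpc6, stood below (5.82% of all genes). For Gfi1b, a repressor of the megakaryocyte and erythroid lineages, the means were 128 and 210 RPKM against 22.8 to 112. For F2r, a thrombin receptor, they were 45.9 and 55.8 against 19.7 to 27.8. Mmrn1, the gene of the platelet protein multimerin 1, went the other way with respect to the PLT mice. No PEM or MUL cell reached 1 RPKM, while 28 of 93 and 36 of 84 PLT cells did (means 97.5 and 84.4 RPKM). This was the smallest p of PEM minus PLT, without passing (adjusted p = 0.18, limma).

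Erythroid genes were present at a lower level. Of 20 erythroid priming genes, 10 were expressed in at least 20% of cells in both mice, and Car1 in none. Gata1 was found in 23 of 93 and 9 of 25 cells (means 18.7 and 19.8 RPKM) and Epor, the erythropoietin receptor, in 11 and 4 (11.1 and 14.0 RPKM). Both had means above the other 4 mice, which ran from 4.23 to 16.8 RPKM for Gata1 and from 3.86 to 6.76 for Epor. With Gfi1b, they were the 3 of 19 tested members that stood above all 4 (7.78% of all genes did). One member, Cpox, stood below (5.82% of all genes). Klf1, a factor of later red cells, was in 3 and 2 cells. A single cell at 1552 RPKM made most of the mean of 67.1 RPKM in mouse 2, which was 5.20 without it. Of 19 tested members 0 passed, and the median log2 change was 0.64. Cells with globin were present beside these values. Summed mature erythroid markers averaged 1226 RPKM on its plate 1 and 3707 on plate 2, and 1300 in mouse 1. Beta-s, a beta globin gene outside that list, exceeded 10000 RPKM in 1 cell of mouse 1 and 3 of mouse 2. Their part in the erythroid values was not tested.

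Of 25 myeloid priming genes, 2 were expressed in at least 20% of cells in both mice and 6 in none. Sfpi1 was found in 37 of 93 and 4 of 25 PEM cells, with means of 55.2 and 66.7 RPKM. These stood near the MUL mice (39.2 and 52.7) and above the PLT mice (9.05 and 6.42), with a log2 difference from the latter of 2.84 ± 0.49 (SE, adjusted p = 0.54, limma). In mouse 2 a cell at 806 RPKM carried it, and the mean without it was 35.9. Prtn3, the serine protease proteinase 3, averaged 367 and 55.6 RPKM in 84 and 8 cells. Cebpa, Mpo, Elane, Ctsg, Cebpe and Csf1r, genes of granulocyte and monocyte differentiation, reached 1 RPKM in no PEM cell. Csf3r, the G-CSF receptor, was at 1 RPKM or more in 72 and 22 cells, but 56 and 19 of these lay between 1 and 10 RPKM, a level also seen in 77 of 93 cells of PLT mouse 1. Of 15 tested myeloid genes 0 passed, and the median log2 change was 0.47. Of the lymphoid priming genes, 4 of 18 were expressed in at least 20% of cells in both mice. Il7r, Dntt, Rag1, Rag2, Ikzf3, Ccr7, Ccr9 and Tcf7, 8 of the 18, reached 1 RPKM in no PEM cell, while Il2rg, the common cytokine receptor chain, was in 83 and 12 cells (means 523 and 310 RPKM).

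Lineage genes were then read together within single cells, with sets and a limit of 10 RPKM chosen after their values were seen, because of the low level of Csf3r. A platelet gene (Vwf, Pf4 or Itga2b) was at 10 RPKM or more in 56 of 93 PEM cells of mouse 1 and 13 of 25 of mouse 2. An erythroid gene (Gata1, Klf1 or Epor) was found in 21 and 8 cells, and a myeloid gene (Sfpi1, Csf3r, Cebpa or Mpo) in 43 and 5. A lymphoid gene (Flt3, Il7r or Dntt) was found in 1 and 1. Thus 21 cells of mouse 1 held platelet and myeloid genes alone and 19 a platelet gene alone. All 3 of the restricted lineages met in 5 of 93 cells (5.38%, exact 95% interval 1.77 to 12.1%) and 1 of 25 (4%, 0.101 to 20.4%). The product of the 3 shares would give 5.85 and 0.832 cells. The cells with all 3 sets were therefore about as many as independent detection gives, as a description with no test. At 1 RPKM all 3 sets met in 16 of 93 (17.2%) and 6 of 25 cells (24%), against 4.30 to 20.2% in the other mice. At 10 RPKM and without the cells bearing mature markers the counts were 4 of 83 and 0 of 17. In the other mice the count at 10 RPKM was 0 of 78, 2 of 85, 0 of 93 and 3 of 84.

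**Figure D2:**
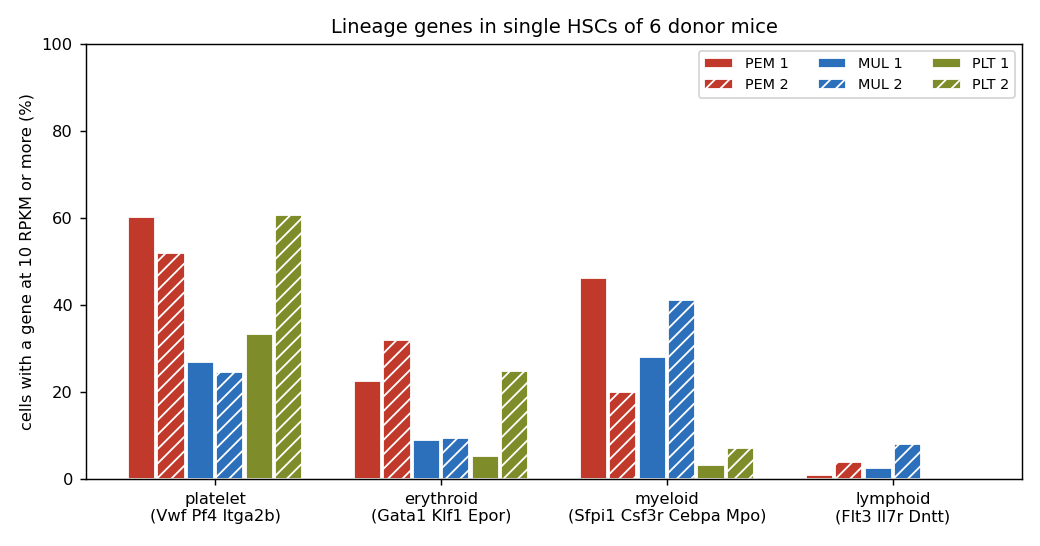
Bars give the percent of cells of each mouse with at least 1 gene of a set at 10 RPKM or more, solid for mouse 1 and hatched for mouse 2 of a class. The platelet bars are 60.2% and 52% in the PEM mice against 24.7 to 60.7% in the others, and that of PLT mouse 2 is the highest. The erythroid bars are 22.6% and 32% in the PEM mice against 5.38 to 25% in the others. The myeloid bars are 46.2% and 20% in the PEM mice, above both PLT mice (3.23% and 7.14%). Those of the MUL mice are 28.2% and 41.2%, both above PEM mouse 2.

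Within pairs of genes, platelet and erythroid genes tended to share cells and Sfpi1 did not. Pf4 and Gata1 were both expressed in 16 of 93 and 7 of 25 cells, where their shares multiply to 9.89 and 5.04, with rank correlations over cells of 0.34 and 0.64. Vwf and Slamf1 met in 29 and 4 cells against 19.2 and 2.40. Gata1 and Sfpi1 met in 5 and 1 cells against 9.15 and 1.44, and Pf4 and Sfpi1 in 14 and 2 against 15.9 and 2.24. Cells of a mouse share plate and range of depth, and Pf4 levels moved with detected genes (rank correlation 0.38 and 0.73), so these correlations are descriptions.

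Other groups were described by the same counts. In the retinoid and aldehyde list, 6 of 21 genes were expressed in at least 20% of cells in both mice, and Aldh2 (means 93.7 and 34.04 RPKM) and Dhrs3 (70.0 and 64.7) followed Aldh1a1 in level. Aldh1a7, a close paralog of Aldh1a1 whose reads may be shared with it, had means of 3.34 and 5.06 RPKM. Aldh1a1, Aldh1a7 and Rxrb were the 3 of 16 tested genes of the list above all 4 other mice (7.78% of all genes were). Because of the shared reads, the first 2 may not count separately. Aldh1a2, Crabp2 and Stra6 were in no PEM cell. In the HSC ageing list 10 of 24 genes were that frequent, led by Nupr1 (707 and 332 RPKM). Of 16 antigen presentation genes, 15 were expressed in at least 20% of cells in both mice. B2m averaged 7866 and 8237 RPKM and was expressed in all PEM cells. Of the 16, 0 passed against the other classes. Class II genes were patchier. H2-Aa was in 46 of 93 and 11 of 25 cells, and Cd74, the class II invariant chain, in 56 and 14. Cd74 and H2-Ab1 met in 43 and 13 cells against 33.1 and 10.6 from their shares (rank correlation 0.50 and 0.75).

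Cycle genes were listed by phase. Of 26 S phase genes, 23 had a positive change against the other classes, as did 6090 of all 11337 genes, with a median log2 change of 0.67 against 0.06 for all genes, and 10 stood above all 4 other mice (7.78% of all genes did), among them the replicative helicase subunits Mcm2, Mcm3, Mcm5, Mcm6 and Mcm7. Mcm5 averaged 64.1 and 67.4 RPKM against 10.7 to 31.1. None of the 26 passed. Of 28 G2-M genes 12 had a positive change (median -0.10) and 0 stood above all others. Mki67 was found in 11 of 93 and 5 of 25 PEM cells. At least 13 of the 26 S phase genes were expressed in 25 of 93 (26.9%, exact 95% interval 18.2 to 37.1%) and 8 of 25 PEM cells (32%, 14.9 to 53.5%), against 5.38 to 38.1% in the other mice. In the window of 2000 to 3500 detected genes this was 8.33% and 15.4%, against 7.35 to 36.7%. The number of S phase genes per cell moved with detected genes (rank correlation 0.76 and 0.73), and its part in the class difference was not tested.

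Cell-to-cell heterogeneity within each mouse was read from the squared coefficient of variation (CV2, the variance over the squared mean) as its log2 excess over genes of like mean. It was computed for 3562 genes that averaged at least 10 RPKM and were expressed in at least 20% of cells in both PEM mice. The excess correlated across genes between the mice (Spearman 0.48), as a description over genes that share lengths and annotation. The top 10% held 356 genes in each mouse, and 75 were shared, 21.1% of each list, where unrelated lists would share 35.6. Leaving out the highest cell of each gene gave 100 shared genes, 31 of them among the 75. That setting kept Beta-s, Pf4, Lst1, Ly6a, Ifitm1, the class II genes H2-Aa and H2-Ab1, the ribonucleotide reductase subunit Rrm2, the mitotic genes Cks2 and Prc1, S100a4 and Rgs1.

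The genes that varied most were of several kinds. Beta-s had 1 cell at 187732 RPKM in mouse 1, next to a second-highest of 409, so 98.8% of its sum lay in 1 cell. In mouse 2 it had cells at 253050 and 239741. Pf4 had an excess of 4.26 and 2.48, with CVs of 4.08 and 2.03, and its highest cell held 33.6% and 27.96% of the sum. Rrm2, of DNA synthesis, had an excess of 1.86 and 3.42, and Ifitm1 one of 2.59 and 2.04. Smim4 and Mcee (excess 3.33 and 2.49, and 3.22 and 2.22) held 35.8% and 38.2% of their sums in 1 cell in mouse 1, and 62.9% and 64.1% in mouse 2. Of the 75 shared genes, 14 had their highest value in 1 and the same cell of mouse 2, and 10 in 1 cell of mouse 1. Plac8 was in the top 10% of mouse 2 alone (excess 3.13). Among the markers Lst1 alone was in the shared top 10% (excess 3.04 in mouse 1, 99.5th percentile). Vwf varied less than genes of like mean in mouse 1 (-1.30, 4.72nd percentile) but not in mouse 2 (0.17, 60.5th percentile). The least variable genes included H2-Q10, H2-Q1, H2-Q2 and H2-Bl, which are near-identical class I copies whose reads the counting could split, so their values are uncertain.

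**Figure D3:**
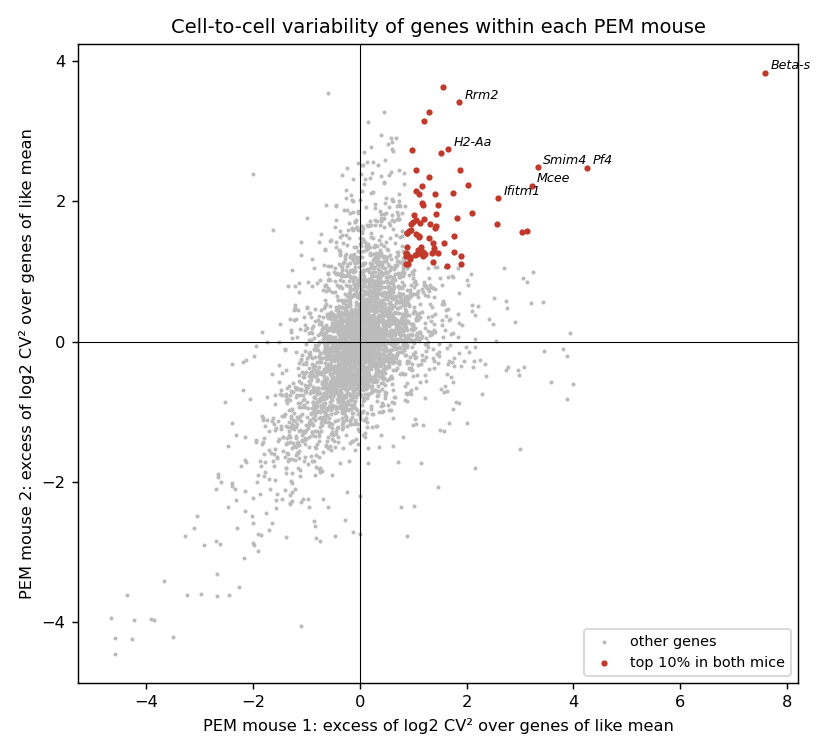
Each point is 1 of 3562 genes, with its excess of log2 CV2 over genes of like mean in PEM mouse 1 (x) and PEM mouse 2 (y), and the 75 genes in the top 10% of both mice are red. Beta-s lies farthest out at 7.59 and 3.83, and Pf4 follows in mouse 1 at 4.26.

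The main axis among PEM cells followed the number of detected genes. The first principal component of the 3562 genes carried 8.04% of the variance in mouse 1 and 16.9% in mouse 2, and its rank correlation with detected genes was 0.95 in both. Within plates it was 0.93 and 0.95 in mouse 1 and 0.89 and 0.94 in mouse 2, and without the cells bearing mature markers 0.96 (83 cells) and 0.92 (17 cells). Mapped reads did not increase along it (-0.28 and -0.75). Over all cells of a mouse, mapped reads and detected genes had a rank correlation of -0.27 in mouse 1 and -0.69 in mouse 2. In mouse 2 the plates differed in both, and correlations with reads were not computed within plates. What the axis reflects was not tested.

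Genes of DNA replication and of the platelet programme lay toward cells with many detected genes. Summed S phase genes had a rank correlation with detected genes of 0.58 and 0.51 (0.64 and 0.55 on the plates of mouse 1, 0.57 and 0.40 on those of mouse 2). All 18 S phase genes of the set exceeded the median gene (0.17) in mouse 1, and 14 of 18 did (0.32) in mouse 2. The DNA methyltransferase Dnmt1 (0.66 and 0.75), the DNA ligase Lig1 (0.61 and 0.60) and Mcm7 (0.53 and 0.82) were among the highest. The summed platelet list reached 0.34 and 0.59, with Pf4 at 0.38 and 0.73 and Itga2b at 0.38 and 0.64. Of its 14 genes in the set, 9 exceeded the median gene in mouse 1 and 12 did in mouse 2. Vwf, at 0.09 and 0.38, was below the median gene in mouse 1. HSC identity genes lay the other way when summed, at -0.52 and -0.30. On plates this was -0.41, -0.63, -0.71 and 0.14, with the 11 cells of plate 2 in mouse 2 differing in sign. Without the cells bearing mature markers, 6 of which lay on that plate, it was -0.57 in mouse 1 and -0.80 in mouse 2. Their sum is dominated by Ifitm1 and Ifitm3, and the median of single HSC identity genes was 0.05 and 0.14. Antigen presentation genes, when summed, were at -0.36 and -0.41, while the median of single genes was -0.07 and 0.13. Single values were negative for 10 of 15 such genes in mouse 1 and 5 of 15 in mouse 2. Ftl1, the ferritin light chain (-0.59 and -0.62), the nuclear RNA Malat1 (-0.56 and -0.48) and the receptor Notch2 (-0.50 and -0.34) were the named genes highest in cells with few detected genes. RPKM is relative to a cell's reads, so a gene's share can fall where others gain.

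**Figure D4:**
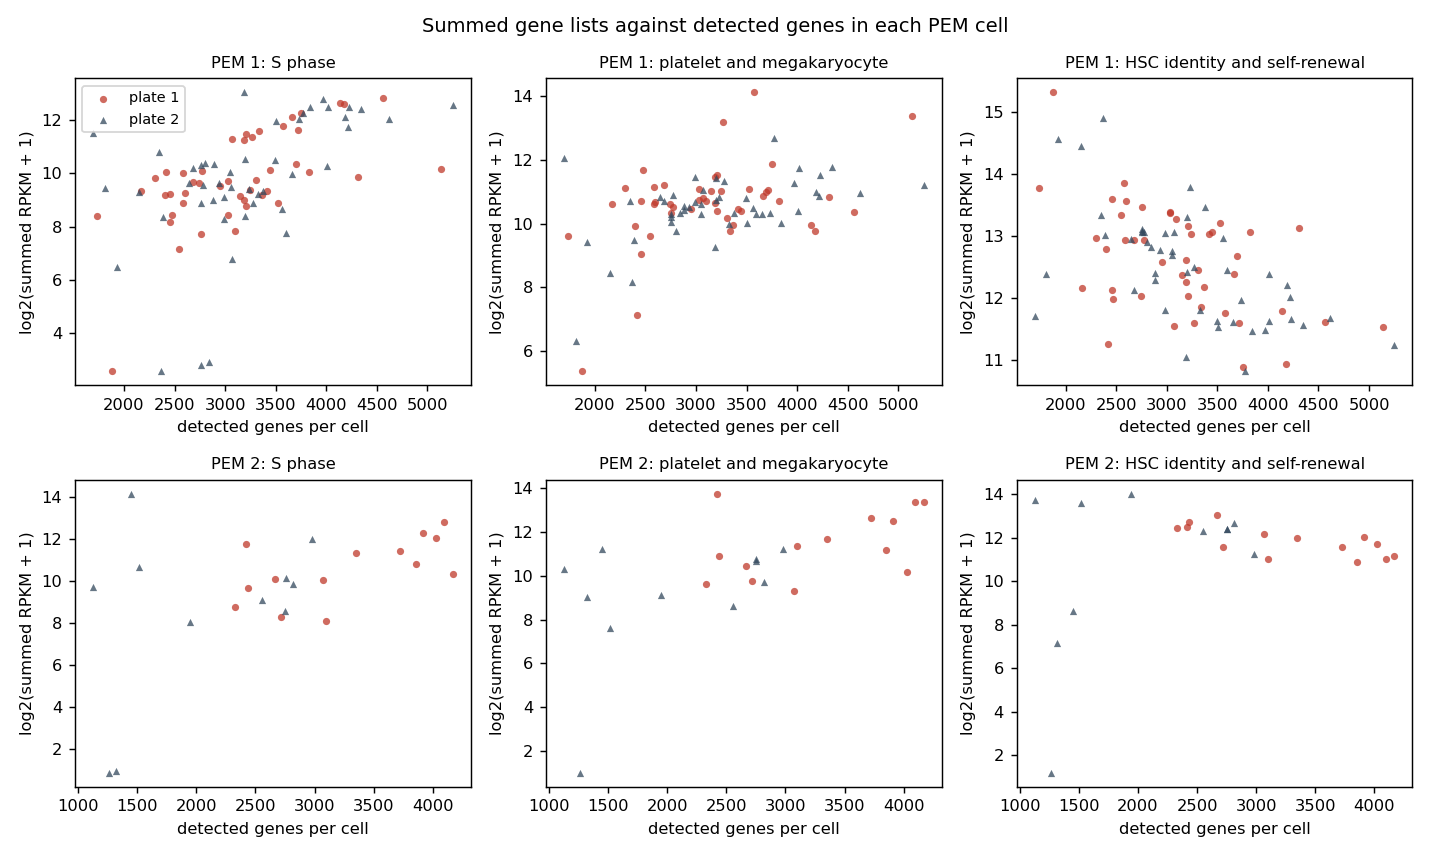
Each point is 1 PEM cell, with the authors' number of detected genes (x) and the log2(summed RPKM + 1) of 3 gene lists (y), by mouse in rows and by plate in symbols. S phase sums increase and HSC identity sums decrease along the axis in mouse 1, and in mouse 2 the plate 2 cells with the fewest detected genes scatter widely.

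Set against the other mice, no gene passed. In PEM minus the mean of MUL and PLT, 0 of 11337 genes were called by limma (0%), with 712 at an unadjusted p under 0.05 where 567 would be so by the threshold alone. PEM minus MUL and PEM minus PLT also gave 0 calls each (0%), with 634 and 949 genes at that unadjusted p, and the 3 comparisons share the PEM mice. For the share of expressing cells, 0 genes were called (0%) and 1131 were under an unadjusted p of 0.05, of which 1107 were higher in PEM. The median logit shift of all genes was 0.46 toward PEM, beside its more numerous detected genes. Both PEM mice had a higher share than all others for 20.5% of genes and a lower one for 0.979%. Variability gave 0 of 1863 genes (0%), with 216 at an unadjusted p under 0.05. Without PEM mouse 1 this count of calls became 69, and without PEM mouse 2 it became 93, each with the lone PEM mouse assumed to vary like the other mice. With 2 mice against 4, an exact two-sided permutation test cannot go below p = 0.133.

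Of the genes with the smallest p that were higher in both PEM mice, Dok2 stood beside Lst1. Dok2, an adaptor that restrains signalling from receptor tyrosine kinases in blood cells, averaged 74.5 and 97.3 RPKM against 22.3, 11.2, 18.4 and 10.01 in MUL 1, MUL 2, PLT 1 and PLT 2. It was expressed in 33 of 93 and 8 of 25 PEM cells against 6.45 to 10.7% of the others, and in 30% and 46.2% against 5.88 to 13.8% in the window of 2000 to 3500 detected genes. Its log2 difference was 2.46 ± 0.49 (SE, adjusted p = 0.76, limma), and the means without the highest cell did not overlap either (67.6 and 69.5 against 6.31 to 14.6). Dok2 and Lst1 met in 15 and 3 PEM cells against 18.5 and 3.20 from their shares, close to independent detection and with no test. Man2b1, a lysosomal mannosidase, averaged 39.2 and 50.7 RPKM against 4.81 to 22.3, and S100a4, a calcium-binding protein, 76.8 and 97.1 against 19.1 to 42.3. The ribosomal protein gene Rpl36 averaged 1462 and 1304 RPKM against 418 to 873. The olfactory receptor gene Olfr99, Rundc3a and the polarity gene Pard6b completed the 8. These 3 rested on few cells (2, 6 and 2 in mouse 1, and 1 each in mouse 2), and their means without the highest cell were at most 0.807 RPKM in the PEM mice. Olfr99 and Rundc3a met the filter (a mean of 1 RPKM or more in at least 2 mice) only through the 2 PEM mice. Their higher means in PEM were therefore a condition of being tested.

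Lower in both PEM mice were Emcn and Capsl, a calcyphosine-like gene, both listed at 0 in every PEM cell. Capsl was at 1 RPKM or more in 8 of 78, 5 of 85, 8 of 93 and 4 of 84 cells of the other mice. Enkur was found in 3 and 0 PEM cells. Calm2, one of the calmodulin genes, was expressed in all 93 cells of PEM mouse 1 and 21 of 25 of PEM mouse 2. Its means were 1632 and 1555 RPKM against 2700 to 3474, and the log2 difference was -0.96 ± 0.21 (SE, adjusted p = 0.76, limma). The 4 cells that lacked it all lay on plate 2, and 3 of them bore markers of mature cells. Twf1, an actin monomer-binding protein, averaged 176 and 99.0 RPKM against 295 to 506. Against the PLT mice alone, the genes of smallest p that were higher in PEM included Gna15, a G protein alpha subunit (56.3 and 49.4 RPKM against 0 and 2.87), the cathepsin gene Ctsd (194 and 194 against 34.99 and 12.95), Coro1a (231 and 252 against 50.1 and 53.3) and Sfpi1. Against the MUL mice, Plac8 and Lst1 were among those higher and Ctla2b (78.0 and 85.7 against 362 and 455 RPKM) among those lower.

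**Figure D5:**
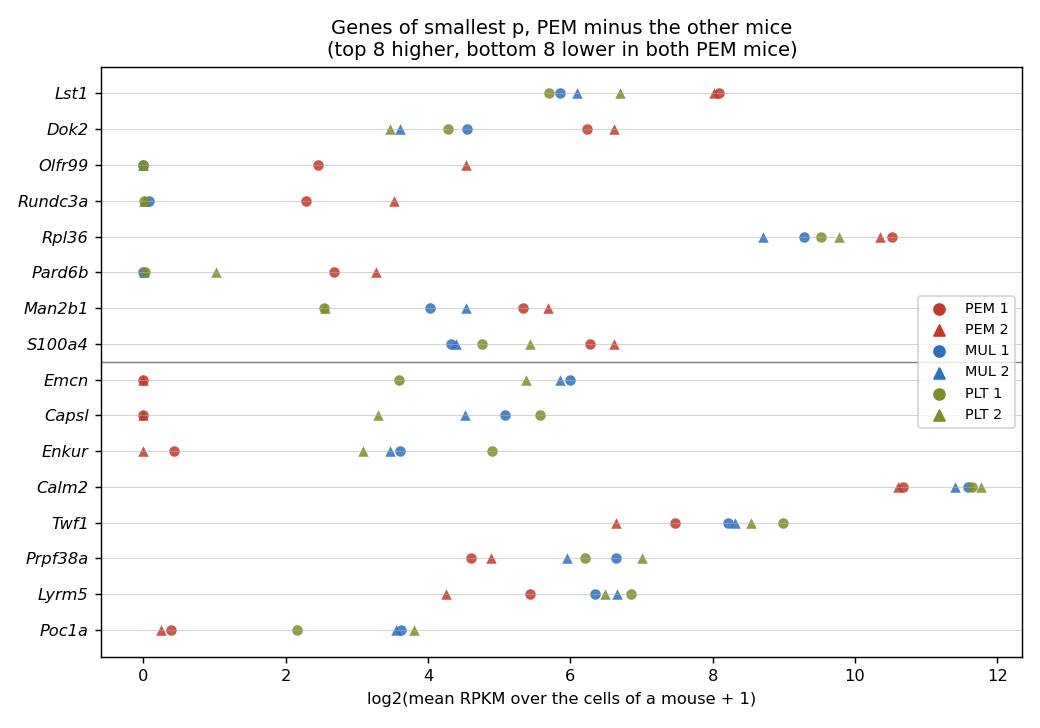
Points give the log2(mean RPKM + 1) of each of 6 mice for the 8 genes of smallest p that are higher (top) and lower (bottom) in both PEM mice, circles for mouse 1 and triangles for mouse 2 of a class. PEM points lie outside the range of the other 4 mice in every row because only such genes were eligible. Among all 11337 genes tested, 7.78% lay above and 5.82% below the other mice. No gene passed the threshold (lowest adjusted p = 0.44, limma).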

How the data were processed

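Single index-sorted HSCs from 6 mice (458 cells, 2 mice a class, told apart by the titles) were analysed. The submitters' processing notes name TopHat, featureCounts and mm10, and give no versions. The deposited table holds RPKM for 22645 genes, as made by the authors. Mapped read counts, detected gene counts and the percent of mitochondrial reads per cell are the authors' deposited values. Whole reads could not be recovered from RPKM, so depth is known per cell and not per gene, and cells could not be thinned. At 1 RPKM a long transcript needs more reads than a short one. A gene counted as expressed at 1 RPKM or more.

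Cells are not replicates, so each mouse gave 1 value per gene: log2(mean RPKM + 1), the logit of the share of expressing cells, or log2 CV2 minus the running median of 151 genes of like mean. These were fitted over all 6 mice with limma 3.58.1 (R 4.3.3) and Benjamini-Hochberg adjustment at 0.05, for genes with a mean of 1 RPKM or more in at least 2 mice, and fold changes on that scale understate low genes. Scripts were tested on simulated data. Shares carry exact (Clopper-Pearson) 95% intervals. A count of 0 was instead said to allow up to 3 cells of the total. That rule gives a smaller upper limit than the exact interval, which reaches 3.89% for 0 of 93 cells. Named genes were the 5 markers, the 4 most abundant members and the undetected members of each list described, up to 8 genes per direction of a comparison with the smallest p among those whose mice did not overlap, the most and least variable genes, the most abundant genes and a fixed set of lineage genes. Of the fixed set, 1 gene is not reported here. Others that are named were chosen after their values were seen. Members and lists were chosen with earlier results of these data known. Positions are from GENCODE on GRCm38, and start regions are from RefSeq (GRCm38.p6), where 4 of 6 genes sought (the markers and Emcn) matched. The titles' numbers separate mice and pair none of them. The MUL mice share an experiment label in their titles, and the other mice have one each, so experiment and mouse cannot be told apart.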

Additional observations from a re-analysis of the deposited data

How the results depend on the processing

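Over 324 alternatives for 20 named genes, every gene kept its direction and none passed the threshold. Apart from Vwf, Slamf1, Plac8 and Aldh1a1, these genes were picked because both PEM means lay beyond those of the other mice. Leaving out 1 mouse could therefore not reverse the picked genes. The same holds for Vwf and Aldh1a1, whose PEM means also lay above those of all other mice. Olfr99, Rundc3a and Pard6b fell below the filter in some settings and had 11, 10 and 14 alternatives, against 17 for the others. Of 78 alternatives for counts of genes, 67 stayed within 1.5 times the reported count. Lst1 ran from 0.84 to 2.501 (log2), Emcn from -8.48 to -0.87 and Plac8 from 0.06 to 1.79. Without the filter on low values, 9 genes were called in PEM minus MUL (1 higher, 8 lower) and 4 in PEM minus PLT (1 higher, 3 lower). Without cells bearing mature markers, 1 gene, Erdr1, was called in PEM minus MUL. For the share of expressing cells, 1 gene, Erdr1, was called among cells with 2000 to 3500 detected genes, and leaving out 1 mouse at a time gave 0 to 1 genes, Erdr1 without PLT mouse 2. For variability, leaving out 1 mouse at a time gave 0 to 93 genes (69 without PEM mouse 1, 93 without PEM mouse 2), and leaving out the highest cell of each gene gave 2, Sec61g and Rpl35. The 75 genes of high variability in both PEM mice became 175 with the SD of log2 values, 48 with a mean of at least 30 RPKM and 37 on plate 2 alone. The cause was not tested. Leaving out the highest cell of each gene from the means, and the cell with the highest summed RPKM of each PEM mouse, was chosen after seeing the data. No paired analysis was possible because replicate numbers follow accession order and pair no mice. PEM mouse 2 has 25 cells, so a share of 0 there allows up to 12%.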

Other observations

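Immediate early genes, which respond to handling and signals within minutes, were present in few PEM cells. Of 22 such genes, 2 were expressed in at least 20% of cells in both mice, and Fosb, Egr2, Atf3 and Klf2 were in none. Nfkbia averaged 131 and 62.5 RPKM and Ier2 72.96 and 44.9 RPKM. Of 17 tested 0 passed against the other classes (6 with a positive and 11 with a negative change, median log2 change -0.19). Quiescence genes had 3 positive and 8 negative changes of 11 tested (median -0.33), and none passed. Cdkn1b, the cell cycle inhibitor p27, averaged 73.6 and 59.8 RPKM against 90.2 to 133. It was the 1 quiescence gene below all 4 other mice (5.82% of all genes were), and Ccng2 the 1 above them (7.78% of all genes). Txnip averaged 109 and 152 RPKM within their range. Among cytokine receptor and niche adhesion genes, 12 of 31 were expressed in at least 20% of cells in both PEM mice, among them Ifngr1, the interferon gamma receptor (129.6 and 84.4 RPKM, in 82 of 93 and 12 of 25 cells).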
